A study of Mus musculus with 23 samples.

Results

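The genes described here are the 10 genes of antigen presentation by MHC class I that were looked up by symbol in the deposited expression table: B2m, H2-K1, H2-D1, Tap1, Tap2, Tapbp, Psmb8, Psmb9, Psmb10 and Nlrc5. All 10 were found among its 23284 genes. The 23 RNA-seq libraries came from 16 mesenchymal stem cells of mouse bone marrow taken singly (mMSC1 to mMSC16), from 5 single HL-1 cardiomyocytes (HL1cm1 to HL1cm5) and from 1 population control of each type (mMSC-PC and HL1cm-PC), which is RNA of many cells handled alongside the single cells. The mMSCs were a purchased stock of 3-month-old male mice at passages 6 to 11. HL1cm are an immortalised mouse line of atrial muscle cells, grown with norepinephrine and used at passages 70 to 85. Both are labelled C57BL/6J, both were kept in medium with serum, no cytokine treatment is named for either, and both were captured on the same chip for cells of 17 to 25 micrometres. The HL1cm also carried a green dye. No separate cultures are named, so each cell type was 1 sample, the cells within it were not replicates of a condition, and no test was made between cell types.

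Class I molecules show peptides from inside the cell to cytotoxic T cells. A heavy chain pairs with the light chain B2m in the endoplasmic reticulum, where the transporter made of Tap1 and Tap2 delivers peptides and the bridging protein tapasin (Tapbp) holds the empty class I molecule beside it. The peptides are cut by the proteasome, which in cells exposed to interferon exchanges its catalytic subunits for Psmb8, Psmb9 and Psmb10 to become the immunoproteasome. Nlrc5 is a transactivator that drives transcription of class I heavy chain genes and of some genes that act with them. Mesenchymal stem cells are known for carrying class I and, at rest, little or no class II.

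Values are in FPKM, in which fragments are scaled by exon length and by the mapped total of the library, so that levels of different genes can be set side by side per length. Depth is not contained in FPKM values, and relative depth could not be recovered from the low values. Between 5178 and 7241 genes reached 1 FPKM in a single mMSC, 6428 to 7010 in a single HL1cm, 9625 in mMSC-PC and 9881 in HL1cm-PC. The summed FPKM of the single cells ran from 630240 to 2529613, and in 7 of the mMSC and 3 of the HL1cm it was led by Mir3470a, a short RNA gene for which the FPKM scale gives very large values. An exact 0 can be a failed estimate, since Canx, which every cell uses, was listed at 0 in mMSC12 and at 809 to 1991 FPKM in each of the remaining 15. Such values are written as listed at 0, and groups are described by medians.

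Most of the class I genes were higher in mMSCs than in HL1cm. Taken as log2 of FPKM, with values under 1 FPKM set to 1, the medians of 8 of the 10 genes were at least 2-fold higher in mMSCs, against 21.3% of the 11850 genes that reached 1 FPKM in 2 or more single cells. None of the 10 was at least 2-fold lower, against 21.9% of these genes. The 2 genes outside the 8 were H2-K1, at 1.97-fold, and Tap2, listed at 0 in most cells of both types. B2m, H2-D1 and Psmb8 were higher in every mMSC than in every HL1cm, which held for 2.26% of all genes tested, and no class I gene was lower in every mMSC, against 1.88%. The median difference over the 10 genes was 2.32 on the log2 scale, beside 0 over all genes tested. All 10 passed the filter on low values. Nlrc5 passed it through mMSCs alone, since no HL1cm reached 1 FPKM, so its direction was set by the filter and it gives no weight to the count, which was 7 of 9 without it. The 1671 genes above 0 in all 21 single cells differed by a median of 0.27 as deposited, by 0.90 with libraries scaled to the same sum, by -0.0077 with size factors and by 0.60 relative to Gapdh. No class I gene reversed its direction under these scalings.

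**Figure D1:**
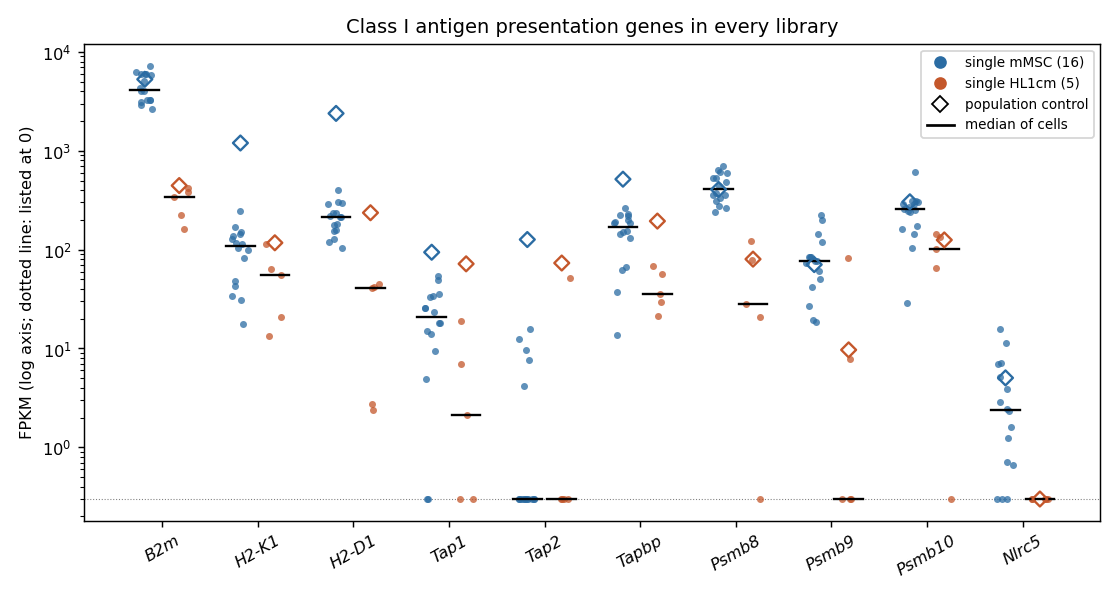
FPKM (log axis) of the 10 class I genes in every library, with single mMSCs in blue, single HL1cm in orange, population controls as open diamonds and medians of the cells as bars. Points on the dotted line are listed at 0. B2m, H2-D1 and Psmb8 show no overlap between the single cells of the 2 types, and the mMSC-PC diamonds of H2-K1, H2-D1, Tap1, Tap2 and Tapbp lie above all 16 mMSCs.

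B2m, the invariant light chain (chromosome 2, bases 122147686 to 122153083 of GRCm38/mm10, plus strand), was the most abundant of the 10 in every single cell. In the 16 mMSCs it ran from 2662 FPKM in mMSC2 to 7266 in mMSC9, with a median of 4142 and 5287 in mMSC-PC. In HL1cm1 to HL1cm5 it was at 420, 162, 225, 387 and 340 FPKM, and at 445 in HL1cm-PC. The lowest mMSC stood 6.33-fold above the highest HL1cm, and the medians were 12.2-fold apart; with libraries scaled to the same sum the difference was 4.64 on the log2 scale. By median it was the 10th most abundant of all genes in mMSCs, and ranked 300 in HL1cm.

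The classical heavy chains H2-K1 and H2-D1, which bind the peptide, are encoded at opposite ends of the MHC on chromosome 17 (bases 33996017 to 34000347, minus strand, and 35262730 to 35267499, plus strand). H2-D1 ran from 103 FPKM in mMSC8 to 400 in mMSC3, with a median of 214. Its values in HL1cm1 to HL1cm5 were 44.9, 2.77, 40.5, 2.39 and 42.2 FPKM. Every HL1cm was below every mMSC, and the HL1cm fell into a pair near the limit of detection and 3 cells just above 40 FPKM, so that the difference of 2.40 on the log2 scale became 4.30 to 4.33 without HL1cm1, HL1cm3 or HL1cm5, 3.51 with libraries scaled to the same sum and 3.47 relative to Gapdh. H2-K1 ran from 17.6 FPKM in mMSC8 to 246 in mMSC6, with a median of 109, against 113, 20.8, 13.4, 64.1 and 55.2 in HL1cm1 to HL1cm5. The groups overlapped, and 8 of 16 mMSCs were above the highest HL1cm. The difference of 0.97 on the log2 scale was 2.00 with libraries scaled to the same sum, 0.62 with size factors, and 1.68, 1.68 and 1.57 without HL1cm1, HL1cm4 and HL1cm5.

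Within a cell the heavy chains stood in a different order in the 2 cell types. H2-D1 was above H2-K1 in 15 of 16 mMSCs, all but mMSC6, with a median ratio of 2.56, and in 1 of 5 HL1cm, HL1cm3, with a median ratio of 0.397. In both population controls H2-D1 was the higher, by 1.99-fold in mMSC-PC and 2.01-fold in HL1cm-PC, so the order of the single HL1cm was not that of their own control. The longest transcripts of the 2 genes in GENCODE M21 were 81.8% identical over the bases aligned. Of all stretches of 75 bases, the read length, in the H2-D1 transcript, 6.90% also occurred in a transcript of another gene, chiefly H2-Q1. Of the stretches in the H2-K1 transcript, 1.33% also occurred in a transcript of another gene. The authors ran their software with default options. How this divided such reads among the genes was not examined here, and values of the class I heavy chains carry that uncertainty.

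**Figure D2:**
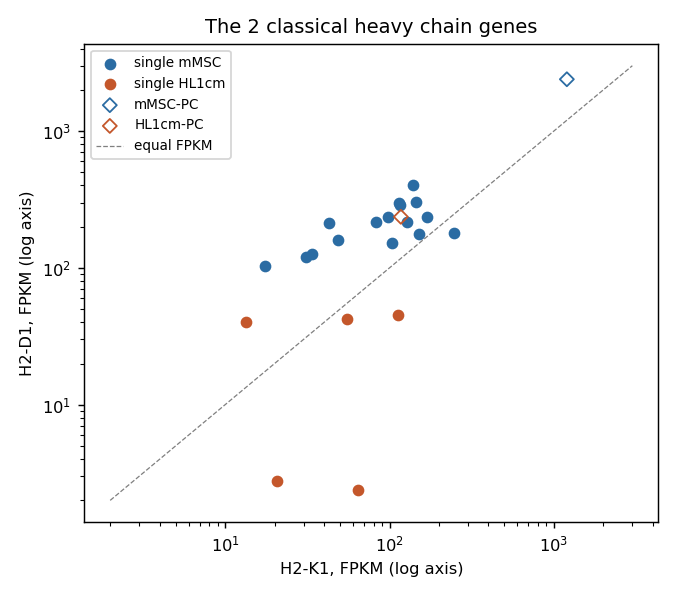
H2-D1 against H2-K1 in FPKM (both axes logarithmic), with 1 filled point per single cell, open diamonds for the population controls and a dashed line of equal FPKM. All mMSCs but mMSC6 lie above the line, 4 of the 5 HL1cm lie below it, and mMSC-PC stands apart at 1199 FPKM for H2-K1 and 2389 for H2-D1.

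The promoters of these 3 genes, the pair of classical heavy chains and the light chain that must be made together, are shown because their letters can be compared directly. RefSeq windows on GRCm38.p6, from 250 bases before to 50 after a start, were held for 8 of the 10 genes, not for Tap2 or Nlrc5. The windows are chr2:122147437-122147736 on the plus strand for B2m, chr17:34000284-34000583 on the minus strand for H2-K1, the second of its starts, and chr17:35262844-35263143 on the plus strand for H2-D1. Both strands were searched for 6 motifs, and matches are in capitals: the core of the interferon-stimulated response element GAAANNGAA (in 8.56% of the 32851 promoters of the table), its form AAGTGAAAC (0.399%), the kappaB core GGGATTCCC (0.353%), the interferon gamma activated sequence TTCNNNGAA (8.30%), the CCAAT box (37.4%) and the cyclic AMP response core TGACG (20.8%).
B2m: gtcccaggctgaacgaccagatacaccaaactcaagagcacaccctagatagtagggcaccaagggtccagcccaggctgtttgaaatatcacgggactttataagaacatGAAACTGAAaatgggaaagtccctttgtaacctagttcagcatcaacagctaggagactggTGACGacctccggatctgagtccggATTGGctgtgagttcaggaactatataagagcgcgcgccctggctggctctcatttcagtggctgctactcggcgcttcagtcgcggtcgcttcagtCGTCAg
H2-K1: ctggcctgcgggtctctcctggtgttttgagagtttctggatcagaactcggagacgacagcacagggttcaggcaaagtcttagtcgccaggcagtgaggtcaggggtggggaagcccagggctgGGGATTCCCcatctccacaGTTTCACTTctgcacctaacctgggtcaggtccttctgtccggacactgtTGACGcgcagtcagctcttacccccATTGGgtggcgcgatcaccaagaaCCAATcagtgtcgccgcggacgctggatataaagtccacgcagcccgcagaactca
H2-D1: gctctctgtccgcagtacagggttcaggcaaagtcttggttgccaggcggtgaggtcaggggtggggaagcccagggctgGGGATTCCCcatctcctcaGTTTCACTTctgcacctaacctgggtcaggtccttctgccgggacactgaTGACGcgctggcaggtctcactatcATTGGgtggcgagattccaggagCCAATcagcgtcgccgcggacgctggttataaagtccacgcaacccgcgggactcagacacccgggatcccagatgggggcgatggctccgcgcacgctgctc
The heavy chain promoters were 88.9% identical over 253 aligned bases. Each held 1 kappaB match, 1 AAGTGAAAC match, 2 CCAAT matches and 1 TGACG match, in the same order. B2m held 1 GAAANNGAA match, 1 CCAAT match and 2 TGACG matches. No matches overlapped in these windows. A match is a description of the letters and not a site of binding.

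Tap1 and Tap2, the subunits of the peptide transporter, were, with Nlrc5, the least abundant of the 10 in mMSCs. Tap1 (chromosome 17, bases 34187553 to 34197225, plus strand) was listed at 0 in mMSC7 and mMSC9 and ran from 4.96 to 53.7 FPKM in the other 14, with a median of 20.7 over all 16. Its values in HL1cm1 to HL1cm5 were 0, 19.1, 0, 2.12 and 7.03 FPKM. The groups overlapped, with 8 mMSCs above the highest HL1cm, and the difference of 3.28 on the log2 scale was 2.42 without HL1cm1 or HL1cm3 and 1.04 at a limit of detection of 10 FPKM. Tap2 (chromosome 17, bases 34203527 to 34216321, plus strand) was above 0 in 5 mMSCs, at 15.6 FPKM in mMSC2, 7.73 in mMSC3, 9.66 in mMSC5, 4.18 in mMSC11 and 12.5 in mMSC15. It was also above 0 in HL1cm1, at 51.2 FPKM, and listed at 0 in the other 4 HL1cm. Only those 5 mMSCs, and none of the HL1cm, had both subunits of the transporter above 0. The population controls held both subunits, Tap1 at 94.1 and Tap2 at 126.5 FPKM in mMSC-PC, and 71.8 and 73.2 in HL1cm-PC.

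Tapbp (chromosome 17, bases 33915899 to 33929292, plus strand), the bridge between transporter and heavy chain, was above 0 in all 21 single cells. It ran from 13.5 FPKM in mMSC8 to 261 in mMSC2, with a median of 169, and was at 35.6, 57.3, 21.3, 29.2 and 68.9 FPKM in HL1cm1 to HL1cm5. The medians were 4.74-fold apart, and 12 of 16 mMSCs were above the highest HL1cm. The mMSCs below it were mMSC3, mMSC8, mMSC13 and mMSC14.

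Tap1 lies head to head with Psmb9, a subunit of the immunoproteasome (chromosome 17, bases 34181987 to 34187764, minus strand), and Psmb8 (34197721 to 34201454) and Tap2 follow Tap1 on the plus strand within 34335 bases in all. The RefSeq starts of Tap1 and Psmb9 are 226 bases apart, and their windows share 275 bases. The window of Tap1, chr17:34187306-34187605 on the plus strand, and that of Psmb8, chr17:34197945-34198244 on the plus strand, are printed to show the start shared by a transporter gene and a proteasome gene and the neighbour with a start of its own, with matches to the same motifs in capitals.
Tap1: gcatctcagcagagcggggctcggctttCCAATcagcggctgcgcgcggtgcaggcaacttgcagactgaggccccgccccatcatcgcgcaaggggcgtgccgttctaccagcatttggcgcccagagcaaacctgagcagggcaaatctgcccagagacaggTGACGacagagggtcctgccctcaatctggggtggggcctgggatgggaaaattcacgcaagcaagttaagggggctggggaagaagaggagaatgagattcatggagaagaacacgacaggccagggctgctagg
Psmb8: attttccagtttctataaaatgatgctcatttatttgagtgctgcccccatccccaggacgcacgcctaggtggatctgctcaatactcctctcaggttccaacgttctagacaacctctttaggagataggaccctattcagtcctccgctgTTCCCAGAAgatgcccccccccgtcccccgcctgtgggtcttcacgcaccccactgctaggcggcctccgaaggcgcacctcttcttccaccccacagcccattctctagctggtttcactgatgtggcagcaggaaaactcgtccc
The Tap1 window held 1 CCAAT and 1 TGACG match, both within the stretch it shares with Psmb9, and the Psmb8 window 1 TTCNNNGAA match. Over the 16 mMSCs, which came from 1 chip, log2 values of Tap1 and Psmb9 had a Pearson's r of -0.23. Psmb9 was above Tap1 in all 16. In GENCODE M21 the genes overlap by 212 bases, whereas from the RefSeq starts given above they run apart without overlap. The authors used an older annotation, and whether it holds an overlap was not examined. The library kits do not mark the strand, so reads from an overlap could not be assigned by strand.

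Psmb8, the immunoproteasome subunit that replaces Psmb5, was the second most abundant class I gene in mMSCs. It ran from 239 FPKM in mMSC8 to 695 in mMSC15, with a median of 408, and was at 79.1, 20.9, 123, 0 and 28.1 FPKM in HL1cm1 to HL1cm5. The groups did not overlap, the medians were 14.5-fold apart, and the lowest mMSC was 1.94-fold above the highest HL1cm. The difference of 3.85 on the log2 scale was 3.11 without HL1cm2 or HL1cm4 and 3.19 with size factors. Psmb9, which replaces Psmb6, ran from 18.5 FPKM in mMSC8 to 223 in mMSC15, with a median of 76.8. In the HL1cm it was at 82.0 FPKM in HL1cm3, at 7.80 in HL1cm4 and listed at 0 in the other 3, so that 7 of 16 mMSCs stood above the highest HL1cm. Without HL1cm3, Psmb9 too was higher in every mMSC, and its difference of 6.26 on the log2 scale was 4.78 without HL1cm1, HL1cm2 or HL1cm5, 4.24 between group means and 2.94 at a limit of 10 FPKM. Psmb10 (chromosome 8, bases 105935735 to 105938444, minus strand), which replaces Psmb7, ran from 28.8 FPKM in mMSC1 to 615 in mMSC10, with a median of 256. Its values in HL1cm1 to HL1cm5 were 0, 144, 102, 65.3 and 133 FPKM, and 14 of 16 mMSCs were above the highest of these. Its medians were 2.49-fold apart, the smallest difference of the 3 subunits. On the log2 scale this was 1.32 as deposited, 2.03 with libraries scaled to the same sum, 2.09 relative to Gapdh and 0.75 with size factors, where it was under 2-fold.

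Set beside the constitutive subunits they replace, the 3 immunoproteasome subunits made up a larger part of the catalytic transcripts in mMSCs. Their share of the summed FPKM of all 6 genes ran from 37.0% in mMSC5 to 63.0% in mMSC10, with a median of 50.6%, and was 46.4% in mMSC-PC. In HL1cm1 to HL1cm5 it was 8.55%, 13.1%, 43.2%, 6.15% and 25.2%, and 14.4% in HL1cm-PC. HL1cm3, which held the most Psmb8 and Psmb9 of the HL1cm, reached into the range of the mMSCs. The summed constitutive subunits differed less, with 527 to 965 FPKM in mMSCs and 404 to 1116 in HL1cm. Subunit by subunit, Psmb8 was above Psmb5 in 12 of 16 mMSCs and in 0 of 5 HL1cm, and Psmb10 above Psmb7 in 10 of 16 and 2 of 5. Psmb9 was above Psmb6 in 1 mMSC, mMSC9, and in 0 of 5 HL1cm. Psmb6 itself was lower in mMSCs, with medians of 175 and 458 FPKM, and Psmb7 higher, with 189 and 80.4.

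**Figure D3:**
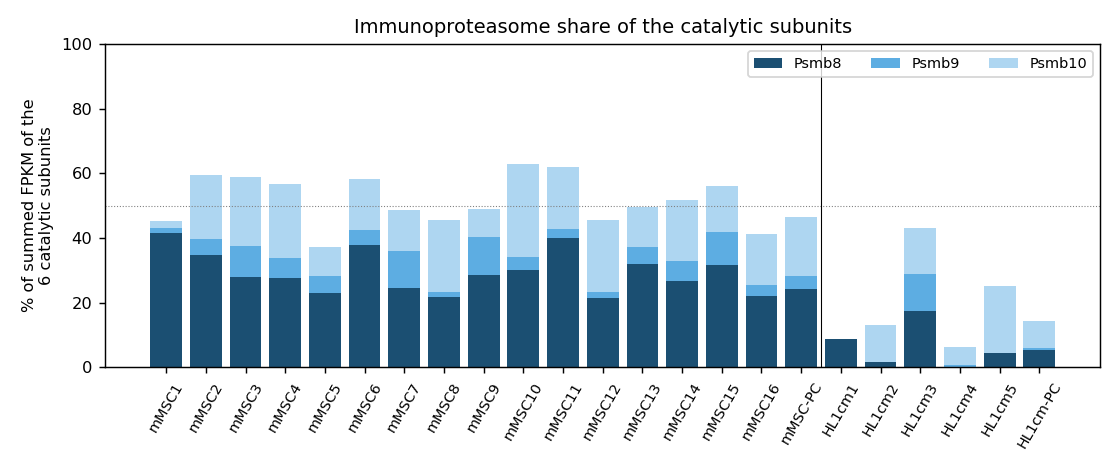
Share of Psmb8, Psmb9 and Psmb10, as stacked bars in percent of the summed FPKM of these 3 and of Psmb5, Psmb6 and Psmb7, in each of the 23 libraries, with mMSC libraries left and HL1cm libraries right of the vertical line and a dotted line at 50%. The mMSC bars end between 37.0% and 63.0%, and of the HL1cm bars that of HL1cm3 (43.2%) alone ends in that range.

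Nlrc5 (chromosome 8, bases 94434356 to 94527272, plus strand), the transactivator, was low where it was present. It was above 0 in 13 of 16 mMSCs and at 1 FPKM or more in 11, which is 68.8% (exact 95% interval 41.3% to 89.0%, counting error only), with a median of 2.38 FPKM and a highest value of 15.8 in mMSC15. It was at 5.04 FPKM in mMSC-PC. All 5 HL1cm and HL1cm-PC listed it at 0. The difference of Nlrc5 on the log2 scale fell short of 2-fold, at 0.79, with libraries scaled to the same sum, and at a limit of detection of 10 FPKM it was 0, since most of its values lie below that limit.

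The order of levels in mMSCs was B2m, Psmb8, Psmb10, H2-D1, Tapbp, H2-K1, Psmb9, Tap1, Nlrc5 and Tap2 by median. B2m was above Psmb8 in 16 of 16 cells, Psmb8 above Psmb10 in 14, and Psmb9 above Tap1 in 16. The neighbours from Psmb10 down to Psmb9 stood in that order in only 10 or 11 of 16 cells, and their ranges overlapped. In HL1cm the order began with B2m, Psmb10, H2-K1, H2-D1, Tapbp and Psmb8. Here too B2m led in 5 of 5 cells, and of the neighbours after it none kept its order in all 5.

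The genes differed in how evenly they were expressed among mMSCs. B2m, Psmb8 and H2-D1 had an SD between cells of 0.47, 0.49 and 0.54 on the log2 scale, a highest over lowest ratio of 2.73, 2.91 and 3.87, and no overlap with HL1cm. Psmb10, H2-K1, Psmb9 and Tapbp had an SD of 0.96, 1.05, 1.06 and 1.16, and ratios between 12.1 for Psmb9 and 21.4 for Psmb10. Nlrc5, Tap2 and Tap1, each listed at 0 in some mMSCs, had the largest SDs of the 10, 1.36, 1.57 and 1.75. The median SD over the 10 genes was 1.06, beside 1.31 over all genes tested. This median was 0.68 at a limit of detection of 10 FPKM and 1.39 with libraries scaled to the same sum. Between 7 and 10 of the genes reached 1 FPKM in an mMSC, with a median of 9, and 6 or 7 in an HL1cm, with a median of 7. A few cells stood at the edge of several genes. mMSC8 had the lowest H2-K1, H2-D1, Tapbp, Psmb8 and Psmb9 of the 16, and mMSC15 the highest Psmb8, Psmb9 and Nlrc5. The summed FPKM of mMSC8 was 2016691, of which Mir3470a took 62.5%, and its 6965 genes at 1 FPKM or more were within the range of the other cells. The part of this in its low class I values was not tested. mMSC9, which had the highest B2m, and mMSC15 held the fewest genes at 1 FPKM or more of the 16, 5178 and 5837. The part of that in their class I values was not tested either.

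Correlations among the class I genes across the 16 mMSCs depended on the scaling and on 1 cell. Of the 36 pairs among the 9 genes that reached 1 FPKM in 8 or more mMSCs, the median Pearson's r of log2 values was 0.20, and 6 pairs (16.7%) reached 0.5. Over all pairs of the 6777 genes expressed as widely, the median was 0.0041 and 2.96% reached 0.5. H2-K1 and H2-D1 were the closest pair, with r of 0.68 (Spearman's rho 0.59), and 0.57 without mMSC8. For B2m, r was 0.18 with H2-K1 and -0.15 with H2-D1. Without mMSC8 the median over the 36 pairs was 0.056, and 1 pair (2.78%) reached 0.5, beside 3.46% of all gene pairs. With libraries scaled to the same sum the median was 0.60 and 61.1% of the pairs reached 0.5, beside a median of 0.15 and 9.28% over all gene pairs. The 16 points share their chip and their passage range, and their depth was not used here.

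The genes whose levels most resembled those of a class I gene over the 16 mMSCs were sought among the 4678 genes that reached 1 FPKM in 12 or more of them. For H2-K1 these were Psmd8, a subunit of the proteasome's regulatory particle (r 0.87), Wdfy1 (0.83) and Tnfrsf12a (0.83). For Tapbp they were Cuta (0.87), Lpcat3 (0.87) and Os9 (0.82), for Psmb8 Fcho2 (0.83), Cux1 (0.78) and Mfsd1 (0.73), and for H2-D1 Hibch (0.75), 2610203C20Rik (0.74) and Dnttip2 (0.73). Those of Psmb9 were Vamp8 (0.80), Zc3hav1, an antiviral zinc finger protein (0.78), and Ly6e, a gene known to respond to interferon (0.73). For B2m they were Selk (0.78), Cops3 (0.78) and Ank (0.75), for Tap1 Triap1 (0.82), Bcat1 (0.82) and Psmd11 (0.79), and for Psmb10 Pdcd4 (0.81), Gm15772 (0.80) and Sf3a3 (0.75). No class I gene was among the 3 nearest of another. Spearman's rho of these 24 pairs was lower for most, between 0.43 for Psmb10 with Gm15772 and 0.89 for Tapbp with Cuta. These are the extremes of many values over few cells.

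The class I genes differed in how the population control stood to its single cells. In mMSC-PC, H2-K1, H2-D1, Tap1, Tap2 and Tapbp were above all 16 single mMSCs, 5 of 10 against 9.11% of 11215 genes, and none was below all cells, against 2.1%. H2-K1 was at 1199 FPKM and H2-D1 at 2389, 11.0-fold and 11.2-fold above the median cell, Tap1 4.54-fold and Tapbp 3.05-fold. The light chain and the immunoproteasome lay within the range of the cells, with B2m at 1.28-fold, Psmb8 at 0.996-fold, Psmb9 at 0.919-fold and Psmb10 at 1.19-fold. H2-K1, H2-D1, Tap1 and Tap2, 4 of the 10, were at least 4-fold above the median cell, against 22.1% of genes. Tap2, with a median listed at 0, was counted from the floor of 1 FPKM. B2m exceeded H2-D1 by a median of 23.2-fold in single mMSCs and by 2.21-fold in mMSC-PC.

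In HL1cm-PC the same 5 genes, and B2m, stood above the cells. It was above all 5 HL1cm for B2m, H2-K1, H2-D1, Tap1, Tap2 and Tapbp, 6 of the 9 genes tested, against 31.3% of 9455 genes, and below all 5 for none, against 2.97%. H2-D1 was at 236 FPKM, 5.83-fold above the median cell, Tap1 33.9-fold, Tapbp at 194 FPKM, 5.46-fold, and H2-K1 at 117 FPKM, 2.12-fold. With 1 HL1cm left out, the fold of H2-D1 reached 10.9 (without HL1cm1), and that of Tap1 ran from 15.7 (without HL1cm1) to 67.9 (without HL1cm2). H2-D1, Tap1, Tap2, Tapbp and Psmb9 were at least 4-fold above the median cell, 5 of 9 against 31.6%. Tap2 and Psmb9, with medians listed at 0, were counted from the floor of 1 FPKM. Psmb9 in HL1cm-PC, at 9.68 FPKM, lay below HL1cm3 at 82.0. H2-K1, H2-D1, Tap1, Tap2 and Tapbp were above all cells of the type in both controls, 5 of 9 against 6.13% of 8575 genes. Fewer cells that express a gene and less RNA per cell cannot be told apart in a population control.

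The size of these gaps depended on what the libraries were scaled to. The median difference of mMSC-PC and single mMSCs over the 10 genes was 1.35 on the log2 scale as deposited. With libraries scaled to the same sum it was 2.06, and with size factors 1.51. Gapdh, an enzyme of glycolysis that every cell uses, was itself higher in mMSC-PC (551 FPKM) than in any mMSC (157 to 319). Divided by Gapdh, 3 genes remained above all 16 mMSCs, H2-K1 at 4.40-fold, H2-D1 at 3.83-fold and Tap2, against 0.687% of genes, and the median difference over the 10 genes went from 1.35 to 0.056 on the log2 scale, beside 0.58 and 0 over all genes. The genes whose level in mMSC-PC was near that of the cells as deposited were lower after the division, at 0.480-fold the median cell for B2m, 0.341-fold for Psmb8, 0.287-fold for Psmb9 and 0.471-fold for Psmb10. In HL1cm-PC the same division left H2-D1, Tap1, Tap2 and Tapbp, 4 of 9 against 21.6%. The gap also moved with base composition. Over all genes with a GENCODE M21 transcript, the median of mMSC-PC minus cells went from 0.01 in the fifth of lowest GC content to 1.34 in the fifth of highest, and from 0.64 to 1.75 for HL1cm. The longest transcripts of H2-K1, H2-D1, Tap1, Tap2 and Tapbp hold 54.3% to 57.1% GC, those of Psmb8, Psmb9 and Psmb10 hold 52.5%, 54.1% and 56.5%, and that of B2m 41.2%. The part of GC content in the gaps was not tested.

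**Figure D4:**
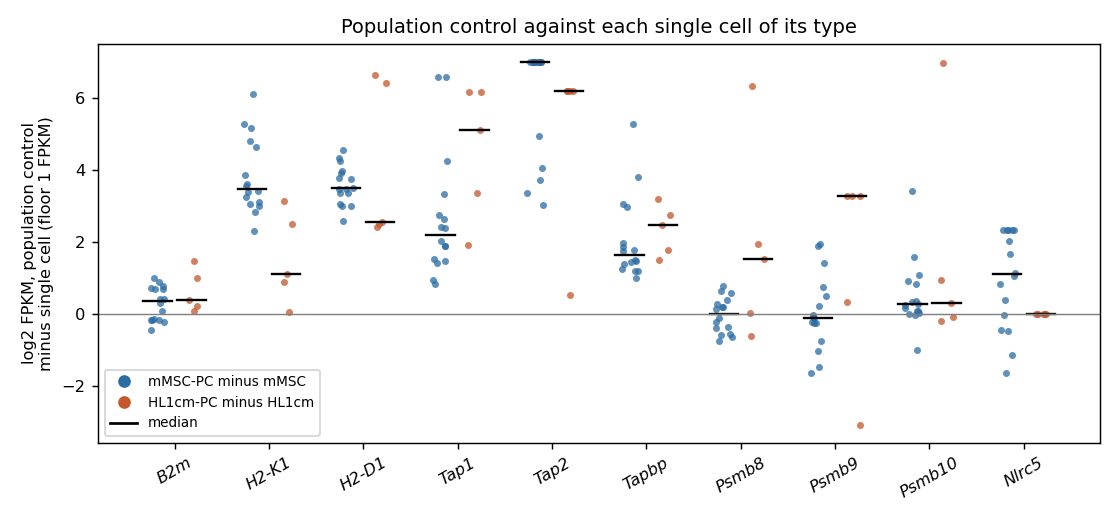
Difference on the log2 scale between a population control and each single cell of its type, for the 10 genes, with values under 1 FPKM set to 1, mMSC in blue, HL1cm in orange and medians as bars. For H2-K1, H2-D1, Tap1, Tap2 and Tapbp all points lie above 0 in both types, while the mMSC points of B2m, Psmb8, Psmb9 and Psmb10 lie on both sides of 0.

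Between the 2 controls, 8 of 10 genes were at least 2-fold higher in mMSC-PC, against 20.5% of 11509 genes, and none lower, against 39.0%. Nlrc5, listed at 0 in HL1cm-PC, could only come out higher, and 7 of 9 remain without it. B2m was 11.9-fold, H2-K1 10.2-fold, H2-D1 10.1-fold, Psmb9 7.29-fold, Psmb8 5.06-fold, Tapbp 2.65-fold and Psmb10 2.43-fold higher. The transporter differed least, by 1.31-fold for Tap1 and 1.73-fold for Tap2. H2-K1, which overlapped between the single cells, stood 10.2-fold apart between their controls. Each control is 1 library, with no replicate.

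Other genes of the pathway were looked at list by list. Of 12 other genes of peptide processing and loading, all tested, 7 were at least 2-fold higher in mMSCs and 0 lower, against 21.3% and 21.9% of all genes, with a median difference of 1.08 on the log2 scale beside 0 over all genes. Psme2, a subunit of the interferon-inducible proteasome activator, was higher in every mMSC (471 to 1402 FPKM) than in every HL1cm (71.0 to 273), and its partner Psme1 had medians of 431 and 167 FPKM. Erap1, which trims peptides in the endoplasmic reticulum, had medians of 14.1 and 6.24, and Tapbpl, a relative of tapasin, of 2.43 and 0. The chaperones of folding were closer, with medians of 1082 and 1374 FPKM for Canx, 370 and 234 for Calr, 301 and 213 for Pdia3 and 743 and 653 for Hspa5. Other genes of the list were at least 2-fold higher in mMSCs, with medians of 202 and 98.8 FPKM for P4hb, 341 and 155 for Sec61a1 and 5.23 and 0.70 for Ero1l.

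Of 17 other class I heavy chain genes in the table, 10 were tested, 6 were at least 2-fold higher in mMSCs and 1, H2-T24 with medians of 3.59 and 9.08 FPKM, lower, against 21.3% and 21.9% of all genes, and their median difference was 1.25. H2-T10, H2-M3, H2-Q8 and Cd1d1 passed the filter through mMSCs alone and give no weight to the count, which was 4 of 6 higher without them. H2-T23, the mouse counterpart of HLA-E, had medians of 59.2 FPKM in mMSCs and 27.7 in HL1cm. H2-T22 had medians of 92.5 and 0.0053, with 1 HL1cm at 24.3 and 1 mMSC at 0.0102. Of the 75-base stretches of the H2-T22 transcript, 19.6% also occur in other genes, chiefly H2-T10. H2-M3, which presents formylated peptides, was above 0 in 13 mMSCs and listed at 0 in every HL1cm, and the neonatal Fc receptor Fcgrt had medians of 15.3 and 5.80. H2-Q2, H2-Q4 and H2-Q7 were listed at 0 in all 21 single cells and at 85.5, 64.5 and 39.2 FPKM in mMSC-PC. H2-Q8 reached 14.2 FPKM in a single mMSC against 5.08 in mMSC-PC, and H2-Q10 reached 3.18 against 2.52. In all, 9 of the 17 were above all 16 mMSCs in mMSC-PC. Of these 9, H2-T10, H2-T22, H2-T23 and Fcgrt passed the filter behind the share of 9.11% of genes, and the other 5, all Q genes, reached 1 FPKM in no mMSC library but mMSC-PC and did not pass it. Of these 5, H2-Q7 was also above 0 in HL1cm-PC, where its level was exceeded 3.26-fold by that in mMSC-PC, and the other 4 were listed at 0 there. H2-Q2, H2-Q7, H2-Q8 and H2-Q10 were chosen after their values were seen, and up to 19.1% of the 75-base stretches of a Q gene also occur in other genes.

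Of 11 regulators of class I transcription tested, 4 were at least 2-fold higher and 2 lower in mMSCs, against 21.3% and 21.9% of all genes, with a median difference of 0. Irf1, an interferon-induced activator of these promoters, had a median of 18.3 FPKM in mMSCs and was listed at 0 in 5 of 16 mMSCs and 3 of 5 HL1cm. Nfyb, a subunit of the factor that binds CCAAT boxes, had medians of 10.9 and 1.57, and its partner Nfyc of 4.09 and 76.0, in the other direction. Rela, a subunit of NF-kappaB, had medians of 23.5 and 49.4, and Rfx5 of 0 and 0.63. Of 9 genes of interferon receptors, their kinases and the factors these activate, 5 were at least 2-fold higher and 1 lower, against the same shares of all genes, with a median difference of 1.53. Irf9, a DNA-binding factor of the type I interferon response, was higher in every mMSC (4.69 to 106 FPKM) than in every HL1cm (0 to 2.17). Of the interferon gamma receptor, Ifngr1 had a median of 50.6 FPKM in mMSCs and was listed at 0 in 3 of 5 HL1cm, and Ifngr2 had medians of 21.2 and 80.0. Jak1, the kinase the receptors share, was 2.89-fold higher by median, and Ifnar2 had medians of 24.6 and 12.8 FPKM.

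Of 8 genes of the class II pathway, 5 were listed at 0 throughout. Of all 23284 genes, 14369 were above 0 in any library, and the rest were listed at 0 throughout. H2-Aa, H2-Ab1, H2-Eb1, Ciita and Ctss were listed at 0 in all 23 libraries, and Cd74, the invariant chain, was above 0 in 2 mMSCs. H2-DMa was above 0 in 3 mMSCs (12.9 to 13.8 FPKM) and at 7.36 in mMSC-PC, and H2-DMb1 in 4 mMSCs (up to 32.5 FPKM) and at 3.00 in mMSC-PC. Of 11 macrophage and leukocyte markers, 6 were at 0 everywhere, Ptprc, Lyz2, Emr1, Aif1, Tyrobp and Laptm5, to be set beside the same count over all genes. Cd14 had a median of 62.5 FPKM in mMSCs, Csf1r of 1.16, and Cd68 was above 0 in 1 mMSC. The summed level of the 11 markers was 3.10 to 369 FPKM in mMSCs and 0 to 1.10 in HL1cm, and its part in the class I values was not tested. The 8 mesenchymal markers summed to 652 to 4913 FPKM in mMSCs and 0 to 7.61 in HL1cm, led by Ly6a, Col1a2, Cd44 and Col1a1, with Thy1 at 0 everywhere. The 9 cardiomyocyte markers summed to 0 to 65.4 FPKM in mMSCs and 32774 to 59970 in HL1cm, led by Myl7, and the 5 endothelial markers to at most 10.8 and 13.8. Of 12 genes used by every cell, 4 were at least 2-fold higher in mMSCs and 0 lower, again against 21.3% and 21.9%, Actb with medians of 9871 and 2676 FPKM among them, and Gapdh had medians of 202 and 237.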

How the data were processed

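Single cells were captured on a Fluidigm C1 chip, cDNA was made with SMARTer and libraries with Nextera XT, kits that do not mark the strand, and sequencing gave read pairs of 75 bases. For alignment to mm10 the authors used Tophat 2.0.12, and for FPKM estimates Cufflinks 2.2.1, each with default options, and the deposited FPKM values for 23284 genes in 23 libraries were used as they stand. No read counts were used here, so no count model was fitted and library depths were not used. Before taking log2, every value below 1 FPKM was raised to 1, and genes reaching 1 FPKM in 2 or more single cells (for a control, in 2 or more libraries of its type) were kept. Cell types were compared by group medians, by a 2-fold difference of medians (4-fold for controls) and by whether groups overlapped, without a test, as each cell type is 1 sample. Shares of cells are given with Clopper-Pearson intervals at 95%. The 10 genes and all lists were chosen with earlier results of these data known.

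Named besides the 10 genes were, from each other list, the 4 genes with the highest median in mMSCs and the 2 with the highest in HL1cm, a set of pathway genes written down with the lists, and for each class I gene reaching 1 FPKM in 12 or more mMSCs the 3 genes with the largest Pearson's r. Not each gene so chosen is printed. The other lists hold peptide loading, class I heavy chain, constitutive proteasome, transcriptional regulator, interferon receptor and signalling, class II, mesenchymal, cardiomyocyte, leukocyte, endothelial and general genes. Positions are from GENCODE M21 and promoters from RefSeq on GRCm38.p6. The alternatives concerned the limit of detection, the log scale, the group summary, the scaling of libraries, the filter and the cells included. Software was Python 3.11.15 with matplotlib 3.10.9, scipy 1.17.1, pandas 2.3.3 and numpy 2.4.6. The authors' spreadsheets of alignment statistics and comparisons were not used.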

Additional observations from a re-analysis of the deposited data

Results flagged for a closer look

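In 2 of the 10 genes, 1 HL1cm stood far from the other 4. Tap2 was at 51.2 FPKM in HL1cm1 and listed at 0 in the other 4, so that the gap to the nearest cell was the whole range of the group (a ratio of 1.0). Psmb9 was at 82.0 FPKM in HL1cm3, with 7.80 FPKM in HL1cm4 and 0 in the other 3 (a gap of 0.905 of the range). Both ratios are above Dixon's 95% critical value of 0.71 for 5 values. The ratio was computed over the HL1cm for 9 genes and the immunoproteasome share, 10 series in all. Nlrc5, at 0 in all 5, has no range. For normally distributed values chance gives about 1 such group in 20, a rate that does not carry over to FPKM with values at 0. The 5 cells are of 1 cell type and not replicates, and with the other 4 at 0 the ratio of Tap2 would be the same for any value above 0, so the ratios only describe these cells. HL1cm3 also held the highest Psmb8 of the HL1cm, 123 FPKM, and the lowest H2-K1, 13.4 FPKM.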

How the results depend on the processing

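Of 290 comparisons with an alternative setting over all 10 genes, 285 kept their value within set limits, 5 moved and 0 reversed. Of 280 for single genes 271 kept theirs, 9 moved and 0 reversed. For values other than counts the limit was the spread between cells, genes or pairs of genes, so large shifts counted as kept. A median pairwise r of 0.20 that became 0.056 without mMSC8 was within its limit of 0.24. The difference of Psmb10, from 1.32 to 0.75 with size factors, was also within its limit. Most alternatives left out 1 cell, so these counts say little about robustness. At a limit of detection of 10 FPKM the median number of genes detected was 8 in mMSCs and 6 in HL1cm, where the higher limit leaves fewer values. With libraries scaled to the same sum, the median pairwise r was 0.60. With every gene divided by Gapdh, the median difference of mMSC-PC and single mMSCs was 0.056, and 3 genes were above every mMSC in mMSC-PC, a count whose alternatives were added with the data already seen. The cause of these shifts was not tested. Leaving out 1 cell at a time gave 8 to 9 genes at least 2-fold higher in mMSCs, 3 to 4 without overlap, a median difference of 2.13 to 2.85 and a median pairwise r of 0.056 to 0.27. It also gave an immunoproteasome share of 49.5% to 51.6% in mMSCs and 10.8% to 19.1% in HL1cm, and 6 to 8 genes above every HL1cm in HL1cm-PC, where 8 was reached without HL1cm3. Over all settings 7 to 9 genes were at least 2-fold higher, with 7 at 10 FPKM and with size factors. Without mMSC9 and mMSC15, the mMSCs with the fewest genes at 1 FPKM or more, 5 genes were still above every mMSC in mMSC-PC. No paired analysis was possible because the result comes from no test, and the numbers shared by mMSCs and HL1cm only name cells. Low values are the least certain, with Tap2 listed at 0 and Nlrc5 near the limit in many cells.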
